A study of Mus musculus with 8 samples.

Results

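The mitochondrial ribosomal protein genes were followed in the hearts of mice that overexpress PKR2 and of wild-type (WT) mice. They were taken as all genes on the array whose symbol is Mrpl or Mrps followed by a number and, in some, a letter. This gave 75 of 27745 named genes: 46 with large subunit symbols and 29 with small subunit symbols. Counts and medians by subunit below follow the symbol. They thus place Mrps18a and Mrps30, which are large subunit proteins, and Mrps36 with the small subunit. The choice used names alone and no measured value, and each gene was read from its brightest probe over the 8 arrays. Mrpl42, on the array under the symbol D10Ertd322e, fell outside this rule and is in none of the gene lists below.

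The label PKR2 is taken to mean prokineticin receptor 2, which couples to G proteins and binds secreted prokineticins. Heart RNA came from male mice aged 12 weeks, 4 WT and 4 with PKR2 overexpression, each heart on its own 1-colour array. The labels name no strain or promoter, so which heart cells carry the extra receptor is not given in the sources used here. The labels name no pooled hearts and no shared animal or litter, and hearts are numbered 1 to 4 within each group only as names. The titles carry slide and array position, by which WT 3 and PKR2 3 shared slide 5 and WT 4 and PKR2 4 shared slide 6.

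Mitochondria carry their own ribosome, which translates the few proteins encoded by mitochondrial DNA, all of them subunits of the oxidative phosphorylation complexes. Its RNA is made in the organelle, while all of its proteins are encoded in the nucleus, made in the cytosol and imported. Heart muscle depends on oxidative phosphorylation, and inherited defects in several of these proteins cause cardiomyopathy.

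Promoter sequence is shown first because these genes are spread over the genome and share a product rather than a locus. RefSeq promoter windows (GRCm38.p6, 250 bases before to 50 after the annotated start) were at hand for 66 of the 75 genes. The windows below show, in capitals, the 10-letter NRF1 motif (GCGCA, any base, GCGC) or the 7-letter ETS motif CCGGAAG, on either strand, in genes described further on. NRF1 is a nuclear factor of mitochondrial biogenesis, and the ETS family includes GABP, another one.
Mrpl12, NRF1 motif, chr11:120484526-120484595, plus strand: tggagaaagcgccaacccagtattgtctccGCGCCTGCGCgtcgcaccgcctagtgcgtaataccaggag
Mrpl44, NRF1 motif, chr1:79775953-79776017, plus strand: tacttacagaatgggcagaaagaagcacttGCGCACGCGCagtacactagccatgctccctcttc
Mrpl17, NRF1 motif, chr7:105811097-105811166, minus strand: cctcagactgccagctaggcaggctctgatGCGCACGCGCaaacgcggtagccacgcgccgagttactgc
Mrpl3, ETS motif, chr9:105053219-105053267, plus strand: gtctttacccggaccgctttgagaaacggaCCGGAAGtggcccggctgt
Mrps22, ETS motif, chr9:98601680-98601720, minus strand: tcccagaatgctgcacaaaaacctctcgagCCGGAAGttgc
Mrps18c, ETS motif, chr5:100798573-100798639, plus strand: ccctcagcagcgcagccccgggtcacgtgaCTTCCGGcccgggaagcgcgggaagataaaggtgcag

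The motif began 81 bases before the start in Mrpl12, 35 in Mrpl44, 49 in Mrpl17, 19 in Mrpl3, 11 in Mrps22 and 156 in Mrps18c. Another motif, AANATGGCG, is that of YY1, a zinc finger factor that acts on many mitochondrial genes. It was found in 9 of the 66 genes, and in 7 of them it lay after the start and read in the direction of transcription. The motif holds the letters ATG, so such a match can overlap the start codon of the protein. Whether it did in any of these 7 genes was not tested. The YY1 motif is shown, in capitals, for the member with the largest and the member with the smallest swing between hearts among these 7.
Mrps27, YY1 motif, chr13:99344790-99344818, plus strand: ggtgcgctccAAGATGGCGgctcccatgg
Mrps30, YY1 motif, chr13:118387219-118387247, minus strand: gcggcgggcgAAAATGGCGgcggccaggt

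The NRF1 motif occurred in 18.2% of the 66 genes, in 10.4% of the 10741 tested genes with a promoter window and in 5.19% of all 27025 genes with one. The ETS motif occurred in 36.4%, 18.3% and 9.93% of these sets, and the YY1 motif in 13.6%, 5.36% and 2.76%. At least 1 of the 3 motifs was present in 39 of the 66 genes (59.1%), against 29.7% of the tested genes and 15.9% of all genes. The mitochondrial ribosomal protein genes thus held these 3 motifs at higher shares than both backgrounds in these windows. How far start codons enter the YY1 shares was not tested.

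**Figure D1:**
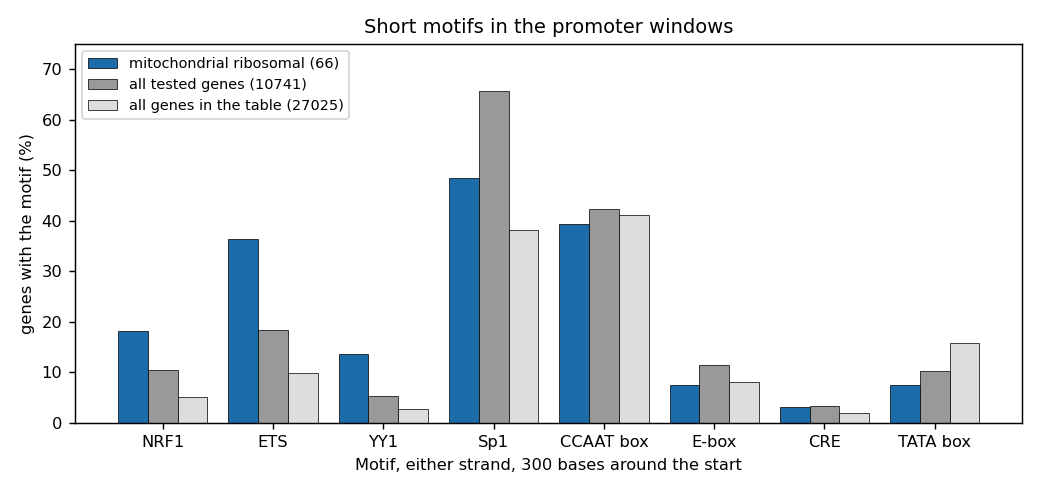
Share of genes (%) whose 300-base promoter window holds each of 8 short motifs on either strand, for 66 mitochondrial ribosomal protein genes, 10741 tested genes and 27025 genes of the RefSeq table. The NRF1, ETS and YY1 bars are higher for the mitochondrial ribosomal protein genes (18.2%, 36.4% and 13.6%) than for both backgrounds, and the Sp1 bar (48.5%) lies between those of the tested genes (65.6%) and of all genes (38.2%).

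Other motifs were no more frequent than among the tested genes. The Sp1 motif GGGCGG was in 48.5% of the mitochondrial ribosomal protein genes and 65.6% of the tested genes (38.2% of all genes), CCAAT in 39.4% and 42.4%, and the E-box CACGTG in 7.58% and 11.4%. The CRE motif TGACGTCA was in 3.03% and 3.33%, and TATAAA in 7.58% and 10.2%. Longer forms of the ETS (ACCGGAAGN, 10.6% against 4.91%) and YY1 (AAGATGGCG and a further G, 7.58% against 2.16%) motifs overlap the shorter forms. The median GC content of the windows was 58.0% for the mitochondrial ribosomal protein genes and 60.3% for the tested genes. All 10 motifs were chosen with these sequences in view, matches are descriptions and not binding sites, and the shares were not tested.

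All levels below are log2 of the background-subtracted signal minus the array's 75th percentile, so 0 is that percentile and 1 unit is a doubling. A level can be compared between hearts for 1 probe but not between genes. Positions of probes are given in mm8, the build of the array files, and those of promoters in GRCm38.p6. Of the 75 genes, 74 were tested, and each of these was well above background on all 8 arrays, with no saturated spot. All 15 cardiomyocyte marker genes passed the filter for testing. So did all 10 endothelial and all 10 macrophage markers, so passing does not gauge muscle content. The 1 Prokr2 probe was well above background on 0 of 8 arrays, so the arrays do not check the overexpression. The share of all spots well above background ran from 48.3% to 67.1% of the array, and the 75th percentile of signal from 40.9 to 770. A single scan range was used for WT 2, WT 4 and PKR2 4 and an extended range for the other 5 hearts. Position 4 of the slide held all PKR2 hearts and WT 1.

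No mitochondrial ribosomal protein gene passed the test for a difference between PKR2 and WT hearts. With limma and Benjamini-Hochberg adjustment over all 15689 features, 0 of the 74 genes passed 0.05 (adjusted p = 0.9997 for each), and 0% of all features passed. At an unadjusted p under 0.05 the count was 0 of 74, beside 2.44% of all features (1.05% higher and 1.4% lower in PKR2 hearts), and the smallest p among the 74 was 0.132. Groups without overlap between hearts were found in 0 of 74 genes and in 1.62% of all features (0.752% higher and 0.867% lower in PKR2 hearts). The mean was higher in PKR2 hearts in 24 genes and lower in 50, while 50.4% of all features were higher and 49.6% lower. This split of the 74 genes turned with the processing. After normexp background correction 2 of 74 were lower, after normexp on commonly scaled arrays 14, and with array position as a covariate 18. Both normexp settings added an offset of 50 to the corrected signal.

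The differences were small in size. Their median was -0.033, with a range from -0.33 to 0.24, and the median over all features was 0.0016. Each 95% interval held 0 and lay within 1 log2 unit (2-fold) of it, from a lowest bound of -0.87 to a highest of 0.79. In 53 of the 74 genes the whole interval lay within 1.5-fold. In 70 genes the difference was smaller than the larger of its group SDs. The genes with large subunit symbols had a median of -0.035 (46 tested, 14 higher, 32 lower). Those with small subunit symbols had a like median of -0.025 (28 tested, 10 higher, 18 lower).

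**Figure D2:**
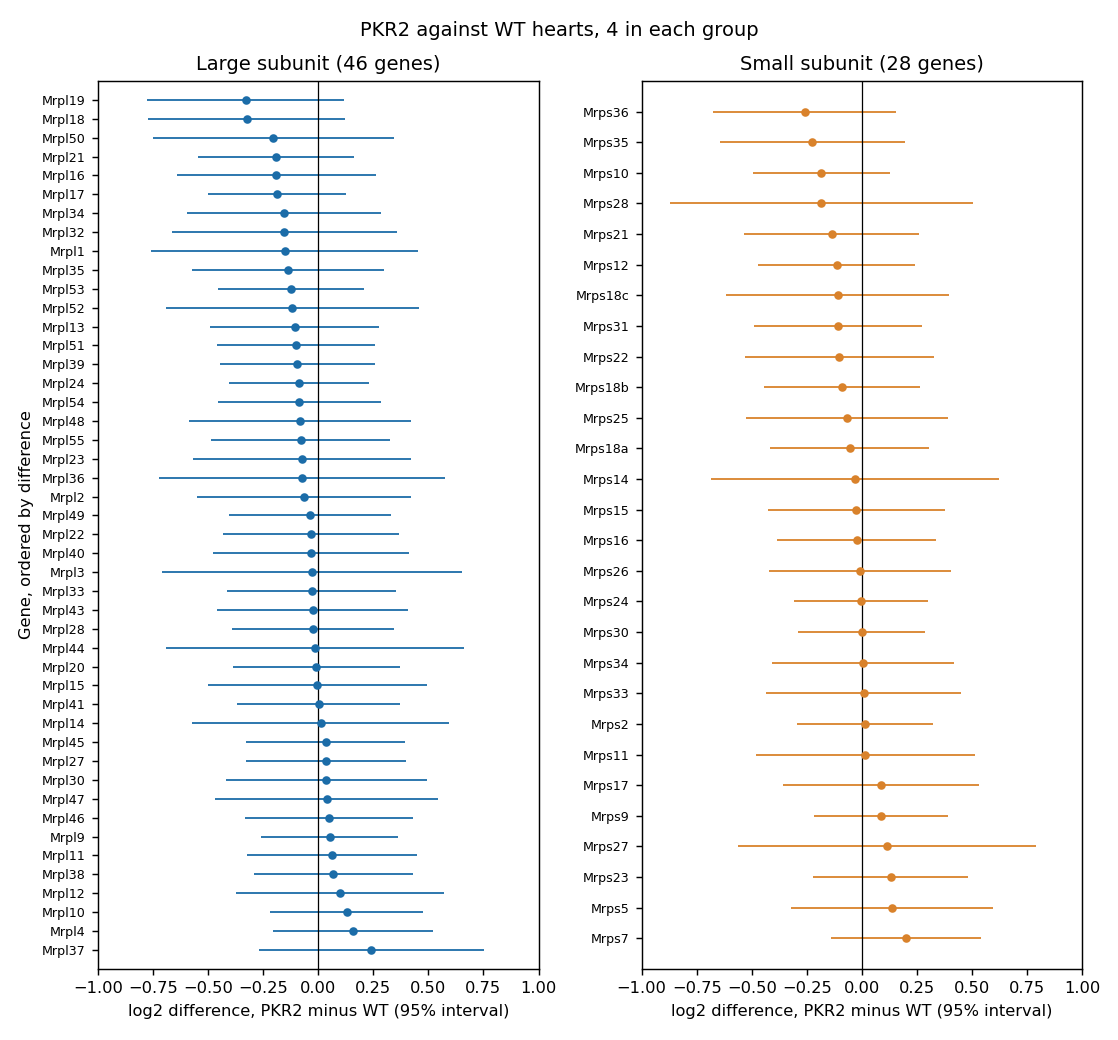
Difference in log2 level, PKR2 minus WT, for each of the 74 tested genes, with large subunit symbols at left and small subunit symbols at right. Points give the difference and lines its 95% interval from limma (4 hearts in each group). Every line crosses 0, and the differences run from -0.33 (Mrpl19) to 0.24 (Mrpl37).

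Among the 8 genes with the smallest p, 7 had lower means in PKR2 hearts. Mrpl19, a protein of the large subunit whose probe lies at chr6:81927634-81927693 (mm8), was at 1.24, 1.25, 1.37 and 1.98 in WT 1 to 4 and at 1.04, 0.99, 1.11 and 1.38 in PKR2 1 to 4. The WT mean was 1.46 ± 0.35 and the PKR2 mean 1.13 ± 0.17 (SD, n = 4), a difference of -0.33 (SE 0.20, limma unadjusted p = 0.132). WT 4 stood above all other hearts, and PKR2 4 lay above WT 1, WT 2 and WT 3, so the groups overlapped.

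Mrpl18 encodes the homolog of a bacterial protein that binds the small RNA of the large subunit (probe at chr17:12754404-12754463). It was at 4.25, 4.75, 5.06 and 4.57 in WT hearts and at 4.06, 4.50, 4.46 and 4.31 in PKR2 hearts, so the means differed by -0.33 (SE 0.20, limma unadjusted p = 0.136). The lowest WT heart, WT 1, lay below all PKR2 hearts but PKR2 1. The other Mrpl18 probes gave differences of 0.023 and -0.086.

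Mrps36 carries a ribosomal symbol but is also known as a subunit of the 2-oxoglutarate dehydrogenase complex of the citric acid cycle (probe at chr13:101836245-101836304). Its levels were 3.32, 3.84, 4.00 and 3.70 in WT and 3.25, 3.71, 3.46 and 3.40 in PKR2 hearts; they differed by -0.26 (SE 0.18, limma unadjusted p = 0.191). WT 1 and WT 4 lay within the PKR2 range, and the second probe differed by -0.15. Both probes were lowest in PKR2 1.

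Mrpl17 (probe at chr7:105683652-105683711), the homolog of a bacterial protein near the exit tunnel, was at 2.55, 2.54, 2.31 and 2.62 in WT and at 2.36, 2.42, 2.25 and 2.23 in PKR2 hearts. The difference was -0.19 (SE 0.14, limma unadjusted p = 0.211; two-sided exact permutation p = 0.0857, n = 4 in each group). WT 3 was the 1 WT heart within the PKR2 range.
Mrps10 (probe at chr17:46841695-46841754), a protein of the small subunit head, was at 2.09, 2.24, 2.23 and 2.34 in WT and at 2.06, 2.17, 2.04 and 1.89 in PKR2 hearts. The difference was -0.18 (SE 0.14, limma unadjusted p = 0.213), and only WT 1 and PKR2 2 lay across each other. Its two-sided exact permutation p of 0.0571 was the smallest of the 74 genes, where 70 relabelings of 4 against 4 allow 0.0286 at best.

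Mrps7, needed to build the small subunit around its RNA, was the 1 gene of these 8 with a higher PKR2 mean (probe at chr11:115422945-115423004). It was at 3.03, 2.86, 2.77 and 3.09 in WT and at 3.37, 3.12, 2.98 and 3.09 in PKR2 hearts, which puts the difference at 0.20 (SE 0.15, limma unadjusted p = 0.219). PKR2 1 stood highest and PKR2 3 lay below WT 1 and WT 4. The second Mrps7 probe differed by 0.076.

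Mrpl21 (probe at chr19:3286978-3287037), another large subunit protein, was at 2.26, 2.48, 2.50 and 2.66 in WT and at 2.24, 2.54, 2.12 and 2.22 in PKR2 hearts (difference -0.19, SE 0.16, limma unadjusted p = 0.252). Mrps35 (probe span chr6:147018647-147027767), a protein particular to mitochondrial small subunits, was at 2.60, 2.40, 2.56 and 3.18 in WT and at 2.58, 2.43, 2.38 and 2.45 in PKR2 hearts (difference -0.23, SE 0.19, limma unadjusted p = 0.255). For Mrpl21 PKR2 2 lay among the WT hearts, and for Mrps35 WT 4 alone was above the rest.

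**Figure D3:**
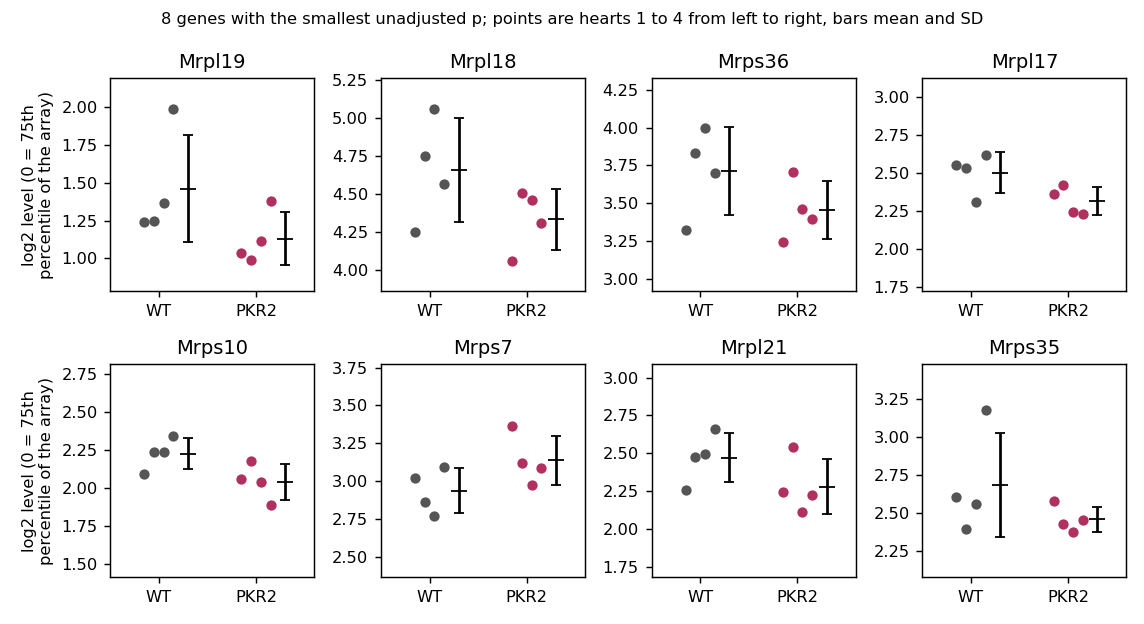
Levels (log2, 0 is the array's 75th percentile) of the 8 genes with the smallest unadjusted p in each of 4 WT and 4 PKR2 hearts, with the mean and SD of each group beside the points; every panel spans the same number of log2 units. In each panel at least 1 heart lies within the range of the other group, and the SD bars of Mrpl19 and Mrps35 in WT are stretched by WT 4.

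Genes whose human counterparts are linked to inherited mitochondrial disease with heart involvement differed between groups by less than the SD of either group. Mrpl3, next to the peptidyl transferase centre, was at 4.71, 5.71, 5.86 and 5.08 in WT and at 4.86, 5.91, 5.27 and 5.19 in PKR2 hearts, a difference of -0.030 (95% interval -0.71 to 0.65). Mrpl44, a protein of the large subunit with a ribonuclease III-like fold, was at 3.15, 4.02, 4.17 and 3.21 in WT and at 3.18, 4.22, 3.66 and 3.45 in PKR2 hearts, a difference of -0.015 (-0.69 to 0.66). In both genes WT 1 was lowest and PKR2 2 highest. The SDs within WT and PKR2 hearts were 0.54 and 0.44 for Mrpl3 and 0.53 and 0.44 for Mrpl44, larger than the differences between groups.

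Mrps14, in the head of the small subunit, was at 2.28, 3.34, 3.77 and 3.11 in WT and at 2.79, 3.32, 3.13 and 3.13 in PKR2 hearts (difference -0.034, 95% interval -0.69 to 0.62). Mrps22, whose loss lowers small subunit RNA, was at 1.40, 1.94, 1.94 and 2.10 in WT and at 1.44, 1.93, 1.80 and 1.79 in PKR2 hearts (difference -0.10, interval -0.53 to 0.33). WT 1 was again the lowest heart for both. Mrps16, an early-binding small subunit protein linked to a fatal neonatal disease, was at 5.67 ± 0.19 and 5.64 ± 0.18 (SD, n = 4 each), a difference of -0.023.

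Proteins of the stalk and its base, where translation factors bind, had higher PKR2 means in the main setting, none past the threshold, and the sign turned in 1 (Mrpl10), 6 (Mrpl11) and 4 (Mrpl12) of 26 refits. Mrpl10 was at 2.19, 2.30, 2.13 and 1.95 in WT and at 2.31, 2.51, 2.16 and 2.10 in PKR2 hearts (difference 0.13, 95% interval -0.22 to 0.48). Mrpl12, which has also been reported to bind the mitochondrial RNA polymerase, was at 5.44, 4.84, 5.03 and 5.49 in WT and at 5.71, 5.11, 5.12 and 5.26 in PKR2 hearts (difference 0.099, -0.37 to 0.57). Mrpl11 differed by 0.063, with PKR2 2 at 5.30 and the other PKR2 hearts from 4.90 to 4.96. In the 3 genes the hearts of both groups were interleaved.

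For other proteins with known roles the values were as follows. Mrps12, which helps set decoding accuracy, was at 3.85 ± 0.23 in WT and 3.73 ± 0.11 in PKR2 hearts (SD, n = 4 each; difference -0.11, 95% interval -0.47 to 0.24). Mrps34 was at 5.07 ± 0.16 and 5.08 ± 0.30 (difference 0.0051), and Mrps2 at 1.36 ± 0.14 and 1.37 ± 0.07 (difference 0.013). Mrpl41, a large subunit protein also described as a binder of BCL2, differed by 0.0014 (-0.37 to 0.37).

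The homologs of bacterial protein S18 are encoded by 3 genes, of which the b and c forms sit in the small subunit and the a form in the large one despite its symbol. Mrps18a was at 3.46, 3.62, 3.70 and 4.03 in WT and at 3.60, 3.79, 3.61 and 3.59 in PKR2 hearts (difference -0.056). Mrps18b was at -1.12, -1.39, -1.42 and -1.18 in WT and at -1.17, -1.23, -1.55 and -1.53 in PKR2 hearts (difference -0.092). Mrps18c was at 2.37, 2.95, 3.25 and 2.76 in WT and at 2.43, 3.14, 2.63 and 2.68 in PKR2 hearts (difference -0.11, 95% interval -0.62 to 0.40). The lowest heart of the 3 genes was WT 1, PKR2 3 and WT 1 in that order.

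The genes differed in how far they swung between hearts, with SDs over the 8 hearts from 0.0572 to 0.472. Mrps28, a small subunit protein, had the largest, at 5.27, 5.87, 6.06 and 5.29 in WT and 5.29, 6.29, 5.15 and 5.02 in PKR2 hearts. Mrps27, an RNA-binding pentatricopeptide repeat protein, came next (SD 0.457), at 0.74, -0.31, -0.22 and 0.24 in WT and 0.96, 0.05, -0.12 and 0.0034 in PKR2 hearts. Mrps27 ran unlike Mrpl3 and Mrpl44, the next in order: it was highest in PKR2 1 and WT 1, in which Mrpl3 was lowest.

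Mrps30, a large subunit protein despite its symbol, was the steadiest of the 74 genes. It was at 2.79, 2.74, 2.86 and 2.92 in WT and at 2.83, 2.87, 2.83 and 2.78 in PKR2 hearts, with an SD of 0.0572 over the 8 hearts, number 13 from the lowest of all 15689 features. Its difference was -0.00036 (95% interval -0.29 to 0.29). Mrps24 (SD 0.0905), Mrps2 (0.100) and Mrps9 (0.105) followed. The median SD of the 74 genes was 0.224, against 0.302 over all features, and 55 of the 74 lay below the latter. Unlike the 74 genes, all features include some not well above background on every array. The median SD was 0.238 for complex I genes and 0.281 for cytosolic ribosomal protein genes.

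Many genes had the same low or high heart. With each gene set to its own mean over the 8 hearts, the median over the 74 genes was -0.20, 0.0056, 0.095 and 0.11 in WT 1 to 4 and -0.098, 0.12, -0.078 and -0.095 in PKR2 1 to 4. WT 1 was thus lowest, and PKR2 2 stood apart above the other PKR2 hearts. Over all 15689 features the median was also lowest in WT 1 (-0.041) and highest in PKR2 2 (0.036). WT 1 was the lowest heart for 33 of the 74 genes, 24 with large and 9 with small subunit symbols. The highest heart was WT 4 for 27 genes and PKR2 2 for 20, and for 0 genes PKR2 3 or PKR2 4. Such counts were not made over all features.

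**Figure D4:**
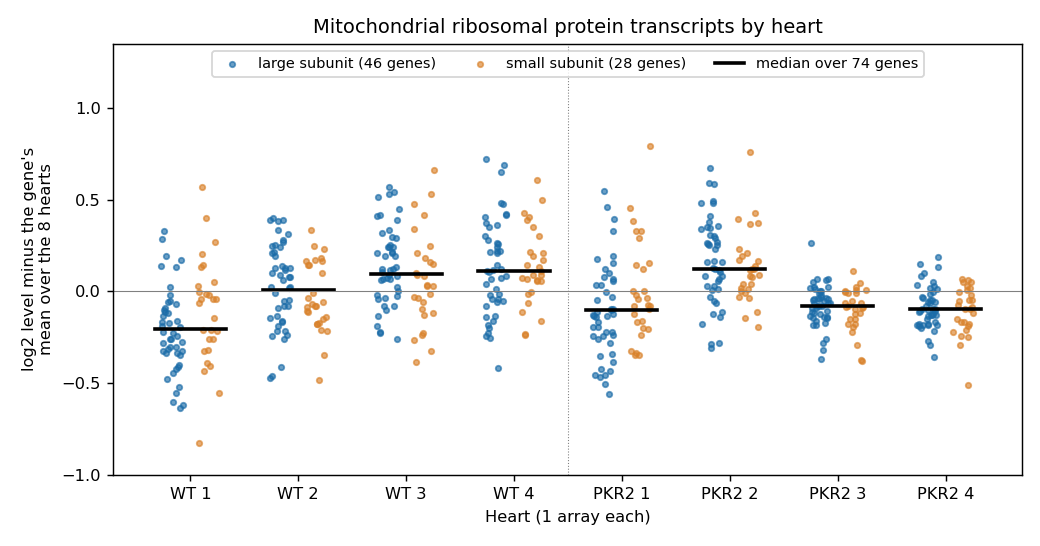
Log2 level of each of the 74 tested genes minus that gene's mean over the 8 hearts, by heart. Genes with large subunit symbols are in blue, those with small subunit symbols in orange, and a black bar marks the median over all 74. The bar is lowest in WT 1 (-0.20) and highest in PKR2 2 (0.12), and the points of the WT and PKR2 hearts overlap.

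Further probes of the same genes were lowest in WT 1 only in part. Of 22 other tested probes of the 15 genes whose brightest probe was lowest in WT 1, 7 were also lowest in WT 1. Only the lowest place was counted, so a probe with WT 1 next to lowest is not among the 7. For Mrpl3, 2 of its 3 other probes were lowest in WT 1, and for Mrpl44 1 of 2. Over all 27 genes with several tested probes, 21 of 39 other probes had a group difference of the same sign as the brightest, and 0 departed from it by over 0.5.

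Mrps6, a small subunit protein, was the 1 gene not tested, since each of its 2 probes had an outlier flag on 1 array. One probe was at 3.98, 3.92, 4.06 and 4.41 in WT 1 to 4 and at 4.14, 4.08 and 4.22 in PKR2 1, PKR2 2 and PKR2 4, with PKR2 3 flagged. The other probe was at 2.76 to 3.08 in 5 hearts but not above background in WT 1 (-5.67) and PKR2 4 (-6.48), with PKR2 1 flagged. With flagged spots kept, an alternative added after the data were seen, the brightest Mrps6 probe differed by -0.091 (SE 0.19, limma unadjusted p = 0.645).

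Within the slides that held both groups, with 1 heart a group and hence no test, the genes were mostly lower in the PKR2 heart. On slide 5 (PKR2 3 against WT 3) 58 of 74 were lower, with a median of -0.19, beside 52.4% of all features. On slide 6 (PKR2 4 against WT 4) 65 of 74 were lower, with a median of -0.23, beside 55.5% of all features. On both slides 52 of the 74 genes were lower (32.3% of all features) and 3 were higher (24.4% of all features). Without slide 6 the median difference, PKR2 minus WT, was 0.026 over the 74 genes, with 33 lower, and 0.021 over all features. WT 3 and WT 4 were also the WT hearts with the highest medians for these genes, and slide and heart cannot be told apart.

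Cytosolic ribosomal protein genes and genes for respiratory complex I, the largest enzyme of the respiratory chain, were taken for comparison. Of 77 cytosolic ribosomal protein genes 15 were higher and 62 lower in PKR2 hearts (median -0.081), and of 34 complex I genes 9 were higher and 25 lower (median -0.054), with 0 of either called by limma and 0 at an unadjusted p under 0.05. Both groups were lowest or next to lowest in WT 1 (medians -0.24 and -0.16) and highest in PKR2 2 (0.29 each). WT 1 was low and PKR2 2 high in all 3 groups of genes, and by less over all features (medians -0.041 and 0.036). The split into higher and lower turned in 4 of 26 refits for both comparison groups, normexp background correction among them (2 of 77 and 1 of 34 lower).

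Adipocyte transcripts also varied between these hearts. Of 15 adipocyte markers 13 were tested, all 13 lower in PKR2 hearts, 10 of them at an unadjusted p under 0.05 and 0 after adjustment (limma). Their mean score was 1.26, 1.13, -0.12 and 1.06 in WT and -2.13, -1.99, 0.52 and 0.28 in PKR2 hearts. PKR2 1 and PKR2 2 shared the lowest adipocyte scores but had mitochondrial ribosomal medians of -0.098 and 0.12. In a fit that includes the adipocyte score as a covariate, the median over the 74 genes was -0.14, with 62 lower and 0 called. In bulk tissue fewer cells of a type and less RNA per cell cannot be told apart.

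**Figure D5:**
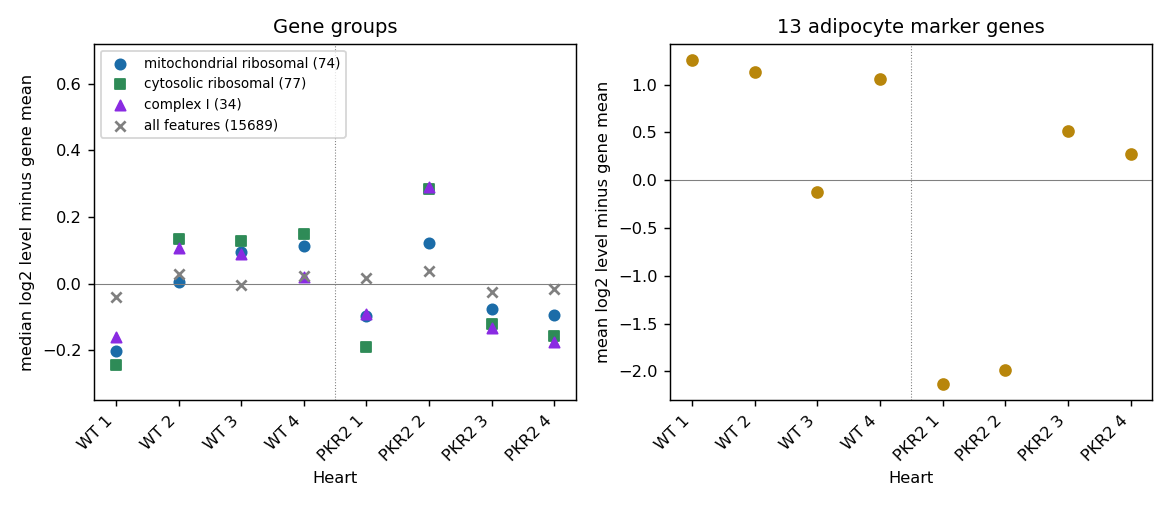
Left, the median log2 level (each gene minus its mean over the 8 hearts) of mitochondrial ribosomal, cytosolic ribosomal and complex I genes and of all features in each heart. Right, the mean of 13 adipocyte markers on the same kind of scale; the gene groups share their low WT 1 and high PKR2 2, while the adipocyte mean is lowest in PKR2 1 (-2.13) and PKR2 2 (-1.99).

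Other genes of mitochondrial translation gave 0 calls as well (limma, adjusted p = 0.9997 for each gene named here), with 0 at an unadjusted p under 0.05 in each list. Of 7 listed ribosomal proteins under other names, 2 were higher and 5 lower (median -0.074), and that split turned in 6 of 26 refits. Aurkaip1 had the smallest p (difference -0.14, SE 0.16), then Mrpl58, a peptidyl-tRNA hydrolase of the large subunit listed on the array as Ict1 (0.13, SE 0.18). Translation factors were higher in 4 and lower in 11 of 15 (median -0.036; turned in 4 of 26 refits). The smallest p belonged to the elongation factor Gfm1 (0.30, SE 0.19) and the membrane insertase Oxa1l (0.26, SE 0.19).

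The aminoacyl-tRNA synthetases, which charge tRNAs, were higher in 14 and lower in 6 of 20 (median 0.081), a split that turned or evened out in 4 of 26 refits. Pars2 (0.26, SE 0.18) and Wars2 (0.28, SE 0.23), for proline and tryptophan, had the smallest p. The assembly factors were higher in 11 and lower in 15 of 26 (median -0.027; turned or even in 10 of 26 refits). Noa1, a GTPase of small subunit assembly, had the smallest p of these lists (limma unadjusted p = 0.0603), at 0.83, 0.67, 0.74 and 0.53 in WT and 1.01, 0.76, 1.08 and 1.28 in PKR2 hearts (difference 0.34, SE 0.16). Only PKR2 2 lay within the WT range of Noa1. The Noa1 difference kept its sign in 26 of 26 refits, from 0.20 to 0.55, with a smallest adjusted p of 0.468. Gtpbp10, a GTPase of large subunit assembly, differed by 0.35 (SE 0.22).

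Genes that copy and transcribe mitochondrial DNA were higher in 7 and lower in 5 of 12 (median 0.0063; turned or even in 14 of 26 refits), with Mterf1a at a difference of 0.23 (SE 0.19) and the nuclease Mgme1 at -0.22 (SE 0.19). Nuclear regulators were higher in 5 and lower in 6 of 11 (median -0.054; turned in 4 of 26 refits). Nrf1, which encodes the factor of the NRF1 motif, lay below the 75th percentile, at -1.58, -2.34, -1.95 and -2.19 in WT and -1.18, -2.13, -1.79 and -1.65 in PKR2 hearts (difference 0.33, SE 0.24). Myc differed by 0.23 (SE 0.21). Members with the NRF1 motif had a median difference of 0.00071 (12 genes) and those without it -0.034 (53 genes). For the ETS motif the medians were -0.087 (24 genes) and -0.015 (41 genes). Transcripts of mitochondrial DNA itself (15 genes listed) were not analysed here, since 0 of the 15 names are on the array.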

How the data were processed

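Heart RNA of 8 mice was measured on 8 arrays with 43379 non-control spots of 41174 probes. Per the labels' protocols, RNA extracted with Tri-Reagent was amplified and labelled with Cy3. Per the file headers, Agilent Feature Extraction 9.5.1.1 subtracted background and flagged outlying spots, and the deposited spot intensity is linear and not normalized between arrays. A further deposited file of the authors holds whole-number values, read as linear intensity already normalized between arrays and used as an alternative. How they were normalized is not given in the sources used here, and their medians ran from 139 to 144.

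Processed intensity was taken to log2, and the array's 75th percentile over non-control spots was subtracted. Control and outlier-flagged spots were left out, saturated spots kept, and spots of a probe averaged. A probe was tested if well above background on at least 3 of 4 arrays of a group. A gene was the file's symbol, read from its brightest probe by mean log2 signal. Groups were compared with limma 3.58.1 (lmFit, eBayes) in R 4.3.3, with data.table (version 1.17.8), and p-values were adjusted by Benjamini-Hochberg over 15689 features at 0.05. Depth has no count here, and precision is limited by 4 arrays in each group. The labels give no separate dissections or litters, so p-values cover the spread between these hearts. Scripts were tested on simulated data. Of the 125 probes of the 75 genes, 113 were tested. For 109 of the 125 the symbol was the one that RefSeq gives for their accession. The other 16 were looked up by the symbol itself, which is no check of it.

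The members, gene lists, motifs and tests were chosen with earlier results of these data known. Described members are the 8 with the smallest unadjusted p, a list with known roles, the 4 largest and 4 smallest SDs, any with probes apart by over 0.5 (0 found) and those not tested; in each other list they are the 2 genes with the smallest p. Mrpl37, in a caption as the largest difference above 0, was chosen after its value was seen. Tested alternatives were background correction, normalization, filter, gene unit, slide, position, scan range, variance model, weights, adipocyte score and leaving out each array.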

Additional observations from a re-analysis of the deposited data

Results flagged for a closer look

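With 4 hearts in each group, a heart was singled out where its gap to the nearest other exceeded Dixon's critical share of the group's range. Of 64 groups looked at, 8 met this, and chance alone singles out about 1 in 20 independent groups. These groups share hearts, their medians overlap, and some members were picked for their spread. The count of 8 can therefore not be weighed against that share.

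In WT hearts, WT 4 stood apart for Mrpl19 at 1.98, with the others from 1.24 to 1.37. WT 1 stood apart for the median over the large subunit genes (each gene minus its mean) at -0.24, with the others from 0.069 to 0.12. WT 1 also stood apart for the dimmer Mrps6 probe at -5.67, where it was not above background, with the others from 2.76 to 3.08.

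In PKR2 hearts, PKR2 2 stood apart for Mrpl11 at 5.30 (others 4.90 to 4.96) and for Mrps18a at 3.79 (others 3.59 to 3.61). PKR2 2 also stood apart for the median over all 74 genes at 0.12 (others -0.098 to -0.078) and over the small subunit genes at 0.10 (others -0.089 to -0.057). PKR2 1 stood apart for Mrps27 at 0.96 (others -0.12 to 0.054). The cause was not tested for any of these.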

How the results depend on the processing

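In 26 refits 0 of the mitochondrial ribosomal protein genes passed limma's adjusted 0.05, and the smallest adjusted p of a described member was 0.468. Over all features 1 passed with array position as a covariate, normexp after common scaling, the filter on all 8 arrays, slide as a random block, a trended robust variance or without PKR2 3, and 0 in the other refits. Mitochondrial ribosomal protein genes with an unadjusted limma p under 0.05 numbered 8 with array weights, 3 with position and 2 with slide as a fixed block. They numbered 2 without WT 1 and 1 with slide as a random block. The share of all features at that p was not counted in these refits. These counts can therefore not be set against a background.

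The median difference of -0.033 (50 of 74 lower) moved to 0.25 (2 lower) with normexp, 0.10 (14 lower) with normexp after common scaling, 0.15 (18 lower) with position, -0.22 with slide as a fixed block, and -0.19 and -0.23 within slides 5 and 6. Without slide 6, 33 were lower. The large subunit median was 0.28, 0.11, 0.19 and -0.23 under normexp, normexp after common scaling, position and slide as a fixed block, and the small subunit median 0.25 and -0.22 under normexp and slide as a fixed block. Leaving out each heart gave medians from -0.13 (without WT 1, 58 lower) to 0.0049 (without WT 4, 36 lower) and 0 to 1 features called.

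Signs reversed with normexp for Mrpl18 (0.12), Mrps36 (0.18), Mrpl17 (0.18), Mrps10 (0.20), Mrpl21 (0.16) and Mrps35 (0.091), with normexp after common scaling for Mrpl17 (0.018), Mrps10 (0.041) and Mrpl21 (0.00032), and with position for Mrpl18 (0.081), Mrps36 (0.13) and Mrpl21 (0.021). Over the 28 described members, 122 of 728 refitted values had the other sign, and Mrpl19, Mrps7, Mrps18b and Mrps9 kept theirs in every refit (4 of 28). The causes were not tested. Position sets PKR2 hearts against WT 1 alone, and slide as a fixed block rests on slides 5 and 6. The labels give no replicate numbers shared by the groups, so the slide shared by WT 3 and PKR2 3, and by WT 4 and PKR2 4, served as the block, with the values above. All 74 tested members were well above background on all 8 arrays, yet the split into higher and lower turned with normexp background correction. That setting added an offset of 50 to signal not scaled between arrays, whose 75th percentile of processed signal ran from 40.9 (WT 2) to 770 (PKR2 1). How far the offset shaped the split was not tested. The dimmer Mrps6 probe was not above background in WT 1 and PKR2 4. Whether signal near background shaped the value of any member was not tested.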
